A study of Oryza sativa with 16 samples.

Results

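In rice seedlings, 1792 stretches of open chromatin that were found in every condition covered at most 50% of their control length after long heat and also after long salt stress. They were chosen as follows. The peaks of 7 deposited lists were merged, when they overlapped or touched, into 119009 regions. Of these, 68348 had a peak of every list, and 57831 of those were at least 500 bp and under 3 kb wide and are called eligible regions. A member was an eligible region in which the bases covered by heat 3 h peaks and the bases covered by salt 6 h peaks were each at most 50% of the bases covered by control peaks. The members were thus selected on the covered bases in control, heat 3 h and salt 6 h, and those values are given below as a description.

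Seedlings of Nipponbare, a Japonica cultivar of rice, were used at an age of 14 days, and the control was kept at 28 °C. Cold was 4 °C for 12 h or 24 h, heat was 42 °C for 30 min or 3 h, and salt was NaCl at 250 mM for 2 h or 6 h. Each condition had 2 FAIRE-seq libraries, but the authors deposited 1 peak list per condition, so that no value below has a replicate error and no difference between conditions was tested. Whole seedlings hold many cell types, and a region that is open in fewer cells cannot be told apart from a region that is less open in each cell. The lists hold no reads and no expression values, so the depth of the libraries cannot be read from them and the tissue label could not be checked against marker genes.

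FAIRE-seq recovers the DNA that is not held in crosslinked protein complexes after shearing, so that stretches rich in reads mark chromatin with few nucleosomes. In plants such stretches lie mostly at promoters, transcription start sites and enhancers. A broad peak of MACS2 joins neighbouring stretches of strong enrichment through weaker ones, so its width depends on the strong parts as well as on the signal between and beside them. Genes at the regions were not analysed here, and positions are on IRGSP 1.0.

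Members were 3.1% of the eligible regions, with a 95% Wilson interval from 2.96% to 3.24% that covers counting error only. Taken alone, heat 3 h was at most 50% of the control in 7.78% of the eligible regions (4498) and salt 6 h in 8.02% (4637). The mirror image, in which the control covered at most 50% of the heat 3 h bases and of the salt 6 h bases, was met by 375 eligible regions, or 0.648%. The lists differ in length in the same direction as the rule. Salt 6 h (87437 peaks, 68.6 Mb) and heat 3 h (91083 peaks, 69.9 Mb) are the 2 shortest of the 7 lists, against 99518 peaks and 82.8 Mb in the control. When every list was reduced to its 87437 peaks of highest fold enrichment, 1283 regions met the rule, which was 2.58% of the eligible regions then left, and 1241 of the 1792 members overlapped one of them. The excess over the mirror image was not recomputed with equal lists.

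The median member was 1289 bp wide, from 511 to 2996 bp, with middle quartiles of 948 and 1711 bp. In the control a median of 1052 bp of it was covered, from 435 to 2964 bp. After heat 3 h the median was 345 bp, from 200 to 1212 bp, and after salt 6 h it was 364 bp, from 200 to 1404 bp. These are 36.8% and 39.2% of the control bases at the median, and the lowest values were 9.36% and 10.1%. The lowest covered length was 200 bp in each of the 6 stress lists, which is the shortest peak in them, so a member could not fall below that length and remain shared. In the 4 lists that the rule did not use, heat 30 min had the longest median coverage (1042 bp), followed by cold 12 h (953 bp), cold 24 h (917 bp) and salt 2 h (796 bp). Heat 30 min thus stood closest to the control at the median and salt 2 h between the control and salt 6 h. In the other 56039 eligible regions the medians of the 7 lists ran only from 823 bp for salt 6 h to 1025 bp for heat 30 min, with 929 bp in the control. The 4 unused lists had the same order there, since cold 12 h had 1015 bp, cold 24 h 959 bp and salt 2 h 926 bp.

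**Figure D1:**
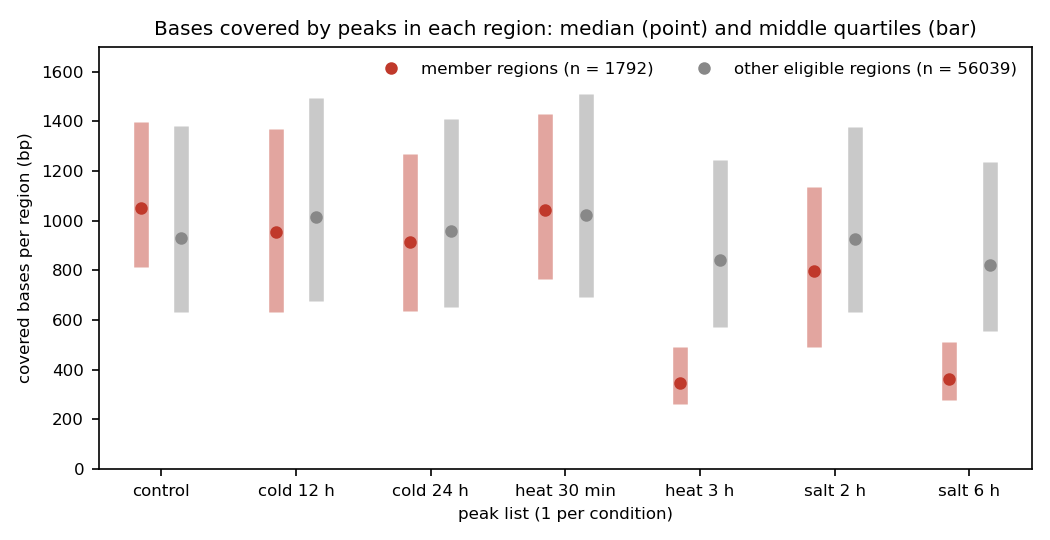
Bases covered by peaks per region (y axis, bp) in each of the 7 peak lists (x axis) for the 1792 members (red) and the 56039 other eligible regions (grey), with points for medians and bars for the middle quartiles. The members stand at 345 bp after heat 3 h and 364 bp after salt 6 h, by the rule, against 1052 bp in the control, while salt 2 h stands at 796 bp.

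Most members were a single peak that became a shorter single peak. The control had 1 peak in 1574 members (87.8%), heat 3 h in 1644 (91.7%) and salt 6 h in 1629 (90.9%), and no list had more than 3 peaks in a member. In the other eligible regions the shares were 92.3%, 90.6% and 92.2%, so a single peak was the usual form there as well. The narrowing was therefore mostly a loss of length and not the replacement of a wide peak by several short ones.

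The strongest member of each chromosome, by control fold enrichment, shows the forms this took. On chromosome 3 the region chr3:4507058-4508113 was covered over 1056 bp in the control, 1031 bp after cold 24 h and 1024 bp after heat 30 min. It was covered over 505 bp after cold 12 h, 495 bp after heat 3 h, 510 bp after salt 2 h and 512 bp after salt 6 h. The lists thus fell into a long and a short group with nothing between. The short peaks began between positions 4507583 and 4507596 and ended between 4508077 and 4508105, where the long ones also ended (4508091 to 4508113). This region had the highest control fold enrichment of all members, 5.37, and stood at the 99.9th percentile of the control peaks. It was also among the strongest peaks after heat 3 h (percentile 99.7) and salt 6 h (percentile 99.1).

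On chromosome 8 the region chr8:26079932-26081112 had 1123 bp in the control, 1096 bp after cold 12 h, 1105 bp after cold 24 h and 1093 bp after heat 30 min. It had 527 bp after heat 3 h, 558 bp after salt 2 h and 535 bp after salt 6 h. Here both salt times and the long heat shared the short form, which kept the left part and ended between positions 26080519 and 26080526. The remaining piece had a fold enrichment of 7.77 in salt 6 h, the highest of any member in that list. On chromosome 4, chr4:20764873-20766013 had 1083 bp in the control, 1121 bp after cold 24 h, 1097 bp after heat 30 min and 1077 bp after salt 2 h. It had 514 bp after cold 12 h, 482 bp after heat 3 h and 526 bp after salt 6 h, so cold 12 h took the place that salt 2 h had on chromosome 8.

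At chromosome 12 only long heat and salt 6 h had the short form. The region chr12:24942915-24944056 had 1142 bp in the control and between 1055 and 1097 bp in the 4 lists not used by the rule, against 464 bp after heat 3 h and 477 bp after salt 6 h. The region chr10:2005700-2007056 differed in that both cold lists were short as well. It had 1357 bp in the control, 1271 bp after heat 30 min and 1249 bp after salt 2 h, but 501 bp after cold 12 h, 478 bp after cold 24 h, 443 bp after heat 3 h and 369 bp after salt 6 h. A different form was seen at chr7:7273243-7274764, where the control had separate peaks of 436 and 408 bp. Cold 24 h, heat 30 min and salt 2 h also had both of these, cold 12 h had a single peak of 1516 bp across them, and heat 3 h and salt 6 h had only the right one, with 375 and 399 bp. The chromosome 6 and chromosome 11 regions (chr6:8344670-8346165 and chr11:18788218-18789711) likewise had 2 control peaks, and only a right-hand peak remained after heat 3 h and salt 6 h.

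The remaining strongest members were chr1:34857113-34857949, chr2:33535484-33536340, chr5:18749868-18752016 and chr9:20909774-20910954. They had between 748 and 1125 bp in the control, between 287 and 534 bp after heat 3 h and between 362 and 470 bp after salt 6 h. Salt 2 h was in the short form on chromosomes 1 (358 bp) and 5 (534 bp) and as long as the control on chromosome 9 (791 against 771 bp). In all 12 of these regions the control fold enrichment lay between 3.70 and 5.37, which is at or above the 95.1th percentile of the control peaks.

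**Figure D2:**
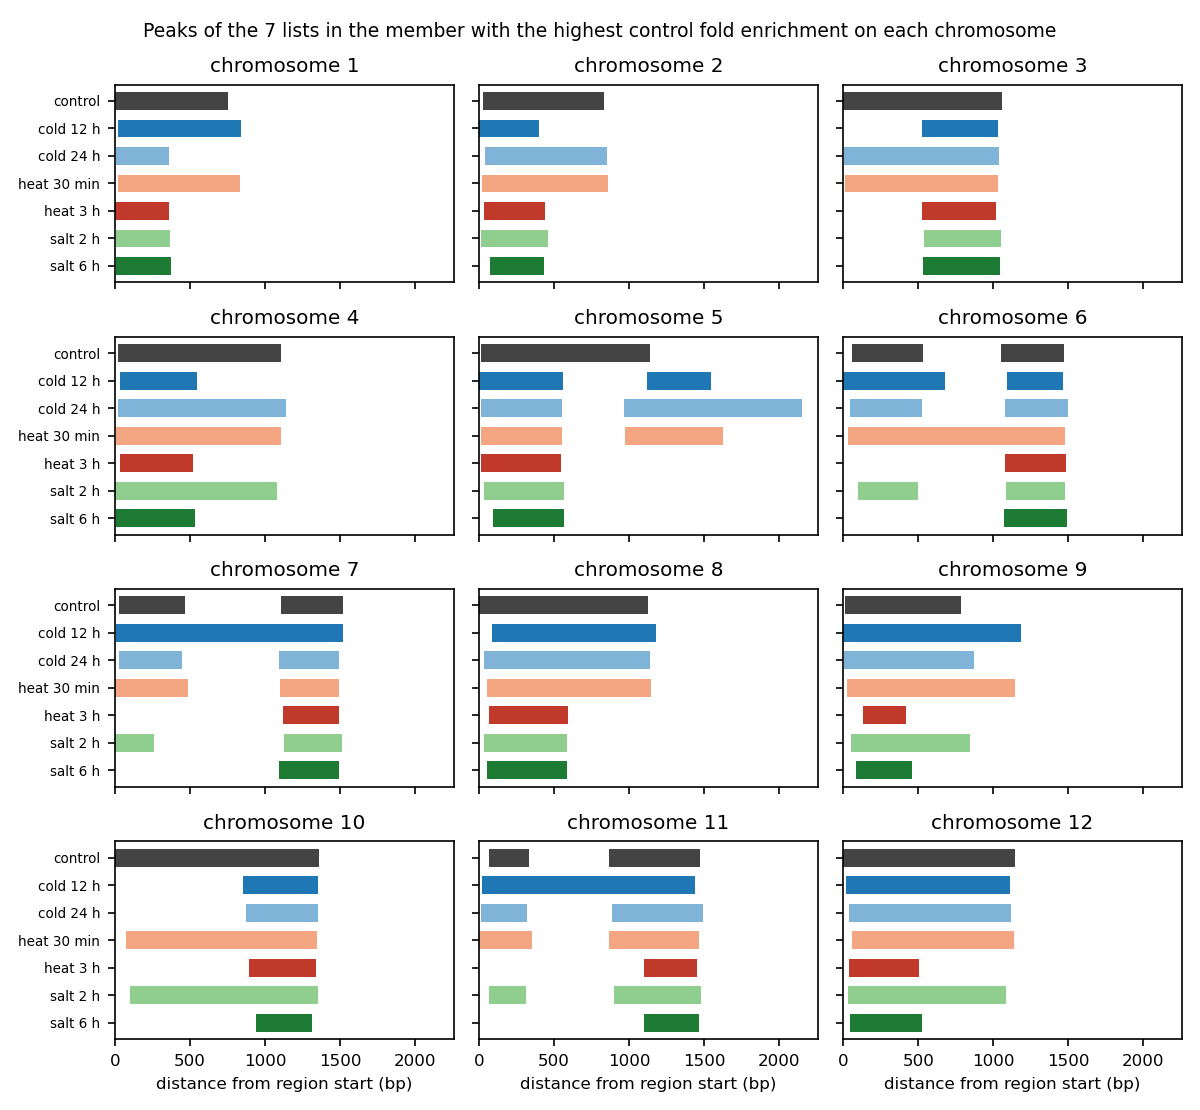
Peaks of the 7 lists (rows, one colour each) in the member with the highest control fold enrichment on each of the 12 chromosomes, against the distance from the region's start (x axis, bp). Heat 3 h and salt 6 h keep a piece of 287 to 535 bp in each panel, mostly at one end of the control peaks, and the other stress lists resemble either this short form or the control in most panels.

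The 4 members that narrowed most were wide regions with a low control fold enrichment. Their width is in part built in, because with a shortest peak of 200 bp so low a ratio needs a long control coverage. The region chr3:14710576-14712629 had the lowest sum of both ratios, with 1956 bp in the control, 202 bp after heat 3 h and 214 bp after salt 6 h. Heat 30 min still covered 2025 bp of it, salt 2 h 1307 bp, cold 24 h 1185 bp and cold 12 h 881 bp. Its control fold enrichment of 1.62 was at percentile 2.98 of the control peaks. The next ones were chr1:34371980-34374408 with 1800 bp in the control, chr12:10274990-10277614 with 2462 bp and chr1:17077251-17080064 with 2363 bp. What remained in these after heat 3 h and salt 6 h was between 210 and 313 bp. In both chromosome 1 regions the heat 3 h and salt 6 h peaks lay at different places, with no base in common. Their control fold enrichments lay between 1.57 and 1.99, at or below percentile 22.2, whereas the strong members above were picked for a high control fold enrichment.

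The members differed among themselves in the 4 lists that the rule did not use. In 1058 members (59.0%) none of these lists was at most 50% of the control, in 434 (24.2%) it was 1 list, in 174 (9.71%) 2 lists, in 84 (4.69%) 3 lists and in 42 (2.34%) all 4. These counts were not made over all eligible regions, so only the shares per list that follow have a comparison. Salt 2 h was at most 50% of the control in 477 members (26.6%, Wilson interval 24.6% to 28.7%), against 1.58% of all eligible regions. Cold 12 h followed with 310 members (17.3%, against 2.52%) and cold 24 h with 279 (15.6%, against 1.06%), and heat 30 min was last with 136 (7.59%, against 1.01%). These comparisons share the control list with the rule, which picked regions with a long control peak, so higher shares among the members are in part built in. The order among the 4 lists, with salt 2 h highest and heat 30 min lowest, is that of the members' own values.

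Salt 2 h had 2 modes of length in the members. Their number per step of 5% of the control length was highest between 95 and 100% (293 members) and had a further maximum between 45 and 50% (143 members), with only 46 members between 80 and 85%. In the other eligible regions 27.6% lay between 95 and 100% and 0.294% between 45 and 50%. Heat 30 min had no second maximum of that size in the members, with 35 of them between 45 and 50%, 44 between 50 and 55% and 342 between 100 and 105%. These were 1.95%, 2.46% and 19.1% of the members, against 0.232%, 0.375% and 22.6% of the other eligible regions. The cold lists had smaller second maxima, with 85 members (cold 12 h) and 84 members (cold 24 h) between 40 and 45%, against 199 and 349 between 95 and 100%. Between 40 and 45% lay 4.74% (cold 12 h) and 4.69% (cold 24 h) of the members, against 0.507% and 0.162% of the other eligible regions. Salt 2 h thus had the short form in a part of the members, while heat 30 min mostly did not. The whole lists differ in the same direction, with 81.0 Mb covered by salt 2 h peaks and 95.2 Mb by heat 30 min peaks. How far this sets the difference seen in the members was not tested.

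**Figure D3:**
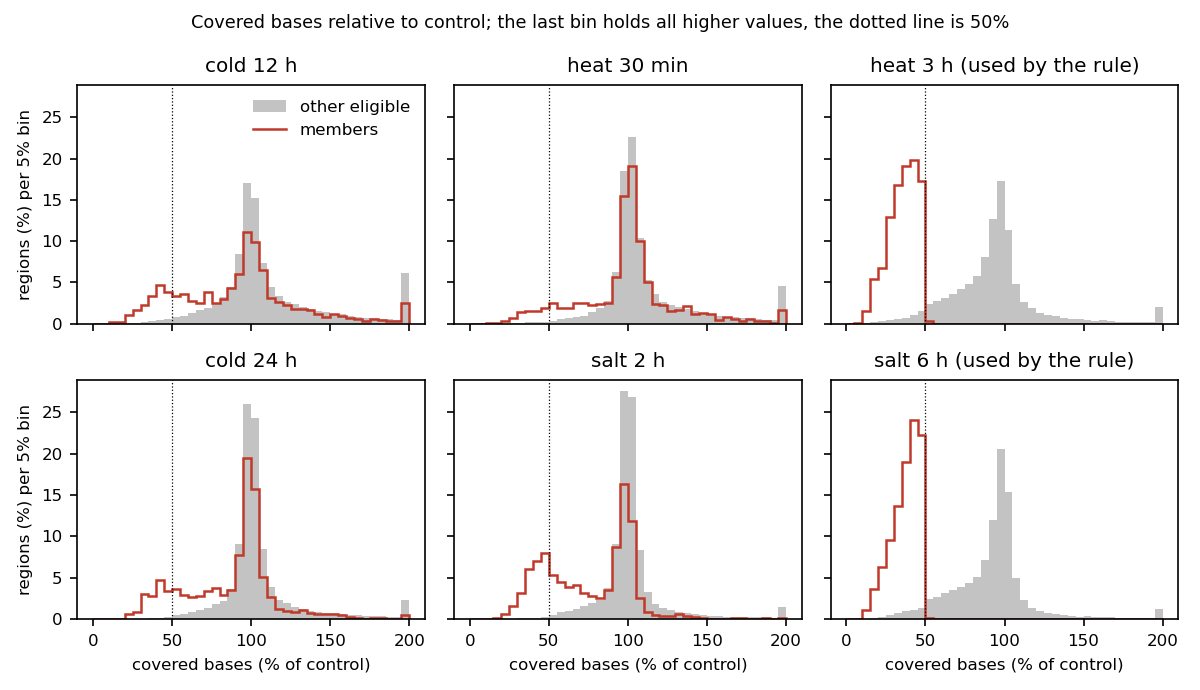
Bases covered in each stress list as a percentage of the control bases (x axis, steps of 5%, the last step holding all higher values), for members (red line) and other eligible regions (grey), as a percentage of the regions in each group (y axis). Heat 3 h and salt 6 h end at 50% in the members by the rule, and salt 2 h has maxima at 45 to 50% and at 95 to 100%.

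Comparisons between the 4 unused lists need no control value. Salt 2 h covered at most 50% of the heat 30 min bases in 409 members (22.8%, Wilson interval 20.9% to 24.8%), against 5.13% of all eligible regions, and heat 30 min covered at most 50% of the salt 2 h bases in 41 (2.29%, against 1.28%). Salt 2 h covered at most 50% of the cold 24 h bases in 255 members (14.2%, against 2.27%), and the reverse held in 75 (4.19%, against 0.835%). For salt 2 h below cold 12 h the counts were 347 members (19.4%, against 6.73%), and for cold 12 h below salt 2 h 129 (7.20%, against 2.82%). In each of these pairs salt 2 h was thus at most 50% of the other list more often than the reverse. The same direction held over all eligible regions.

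By the same limit of 50%, heat 30 min was more often the longer list in each of its pairs, among the members and also over all eligible regions. Cold 12 h covered at most 50% of the heat 30 min bases in 201 members (11.2%, against 2.47%), and the reverse held in 56 (3.13%, against 1.73%). Cold 24 h did so in 198 members (11.0%, against 2.72%), and the reverse held in 45 (2.51%, against 1.07%). Between the cold lists the counts were nearer to each other. Cold 12 h covered at most 50% of the cold 24 h bases in 152 members (8.48%, against 2.4%), and cold 24 h at most 50% of the cold 12 h bases in 180 (10.04%, against 3.97%). In all 12 directions the share was higher among the members than among all eligible regions, when strength was not taken into account. Without regard to strength, a difference of this size was thus more frequent in the members also where the 3 lists of the rule took no part.

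The excess of short salt 2 h peaks over heat 30 min was seen at every strength. Eligible regions were divided into 5 equal classes by the rank of their control fold enrichment, and salt 2 h covered at most 50% of the heat 30 min bases in 20.5% of the 645 members of the weakest class and in 30.1% of the 83 members of the strongest. In the other eligible regions of the same classes the share was between 3.73% and 5.16%. The reverse direction had no such excess at every strength. Heat 30 min covered at most 50% of the salt 2 h bases in 2.48% of the members of the weakest class, against 3.27% of the other eligible regions. It did so in none of the 83 members of the strongest class, against 0.270% of the others. In the classes between, the share was higher among the members. The later list was shorter in nearly all members in the heat and salt pairs, which is largely built in, since the later lists were used by the rule. Heat 3 h covered less than heat 30 min in 1744 members (97.3%), by a median of 663.5 bp, and salt 6 h less than salt 2 h in 1661 (92.7%), by a median of 423 bp. Over all eligible regions the later list was also the shorter one in 78.5% (heat, median 105 bp) and 75.4% (salt, median 37 bp). Cold, which the rule did not use, had the 24 h list below the 12 h list in 959 members (53.5%), with a median difference of 14 bp, as in all eligible regions (53.9%, 10 bp).

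What was left after long heat or salt lay mostly at one end of the control peak. A list was counted as left at 1 end when its covered span came within 10% of the control span from one end but not from the other. For heat 3 h this held in 1376 members (76.8%), with 685 at the left end and 691 at the right end. For salt 6 h it held in 1411 members (78.7%), with 737 at the left and 674 at the right end. Left and right are those of the chromosome, and neither was favoured by more than a few percent of the members. A span in the interior, shortened from both sides, was seen in 352 members after heat 3 h (19.6%) and in 303 after salt 6 h (16.9%). Eligible regions that narrowed this much in only one of these lists had 67.9% at 1 end after heat 3 h (2706 regions) and 73.2% after salt 6 h (2845 regions). One-sided loss was therefore also the usual form outside the members.

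The pieces left in both lists were the same bases in most members. Of the heat 3 h bases in a member, a median of 95.8% was also covered by salt 6 h, and of the salt 6 h bases a median of 88.8% was also covered by heat 3 h. Summed over members the shares were 82.4% and 78.1%, and 79 members (4.41%) had no base in common. In the other eligible regions, where the pieces are longer, the medians were 98.0% and 95.9%, the summed shares were 88.3% and 88.9%, and 80 regions (0.143%) had no base in common. The bases of both lists thus coincided less in the members than elsewhere. The left edges of the heat 3 h and salt 6 h spans were a median of 29.0 bp apart in the members and 28.0 bp in the other eligible regions, and the right edges likewise 29.0 and 28.0 bp. At the median the distance between edges was therefore about the same, although the overlap was lower. Almost all of these bases had been in control peaks, with 96.9% of the heat 3 h bases and 97.6% of the salt 6 h bases inside them.

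The bases that were lost differed between the unused lists. Of the control bases in members, 28.4% were kept in both heat 3 h and salt 6 h, 58.5% were lost in both and 13.1% were lost in one of them. Of those lost in both, heat 30 min covered 79.6%, cold 24 h 67.3%, cold 12 h 64.5% and salt 2 h 54.8%. Each of the 4 lists covered the same 34.9% of them, against 31.8% of such bases in the other eligible regions. The kept bases were covered at 95.5% or more by each of the 4 lists, with 99.4% for salt 2 h. In most members the loss was thus uneven along the region, with a core that nearly every list held and a flank that the lists held to different degrees. In 84 members (4.69%) no control base was kept in both heat 3 h and salt 6 h. No base was covered in all 7 lists in 111 members (6.19%). In the other eligible regions, in which 8.54% of the control bases were lost in both, the lost bases were covered at 75.5% by heat 30 min, 61.1% by cold 24 h, 61.8% by cold 12 h and 53.3% by salt 2 h. Their kept bases were covered at 97.9%, 98.8%, 96.2% and 99.6% by the same lists. A core and an unevenly held flank were thus not particular to the members.

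**Figure D4:**
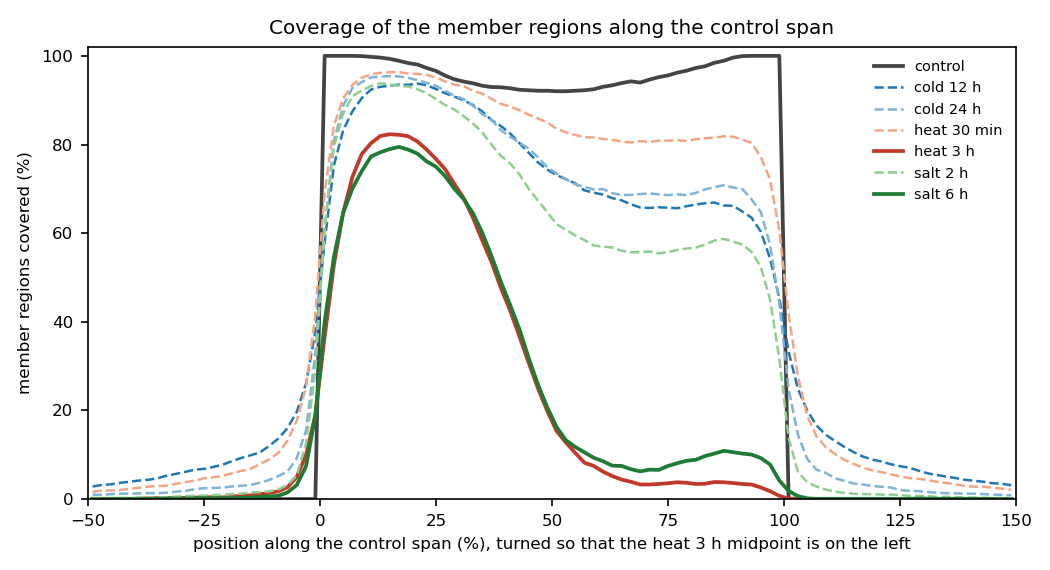
Percentage of members covered by peaks of each list (y axis) along the control span (x axis, in percent of the span, with flanks on both sides), each region turned so that the midpoint of its heat 3 h peaks is on the left. Heat 3 h, whose midpoint set the turn, and salt 6 h are high on the left and low on the right, and at 0.89 of the span they cover 3.63% and 10.6% of members, against 81.8% for heat 30 min, 70.3% for cold 24 h, 66.2% for cold 12 h and 58.1% for salt 2 h.

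Where an unused list had the short form, it mostly covered the same piece. In the 477 members in which salt 2 h was at most 50% of the control, a median of 91.5% of its bases lay in salt 6 h peaks and 85.7% in heat 3 h peaks. In 451 of them (94.5%) at least 50% of the salt 2 h bases lay in salt 6 h peaks. In the 436 other eligible regions with a short salt 2 h list the medians were 93.2% and 94.6%, and 420 of them (96.3%) had at least 50% of the bases in salt 6 h peaks. For the 279 members with a short cold 24 h list the medians were 94.0% in salt 6 h and 88.3% in heat 3 h, and for the 310 with a short cold 12 h list they were 92.4% and 86.7%. The 136 members with a short heat 30 min list had medians of 90.1% and 83.9%. In the other eligible regions with a short list the corresponding medians lay between 98.0% and 100% in salt 6 h and between 93.5% and 98.0% in heat 3 h. A short list thus lay mostly within the heat 3 h and salt 6 h peaks in the members, as in the other eligible regions. By the rule those peaks are shorter in the members, with medians of 345 and 364 bp. In all other eligible regions the medians were 841 and 823 bp. The lower overlap in the members is therefore in part built in, and no difference between the groups can be read from it.

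The members ranked lower by fold enrichment than the other eligible regions in every list. MACS2 fold enrichment is the authors' value and was compared only by its rank among the peaks of the same list. The strongest control peak of a member stood at a median percentile of 43.4, with middle quartiles of 25.1 and 64.1, against 64.3 in the other eligible regions. In the cold 12 h and cold 24 h lists the members had median percentiles of 47.8 and 44.4, against 66.8 and 66.4 in the other eligible regions. In the heat 30 min and salt 2 h lists they had 46.4 and 45.6, against 64.5 and 65.4. After heat 3 h the remaining peak stood at a median percentile of 41.9 and after salt 6 h at 46.7, against 63.1 and 61.6. The lists differ in their number of peaks, so percentiles of different lists do not show whether a region became stronger or weaker. The members also had a longer control coverage than the other eligible regions (medians of 1052 and 929 bp). How far the width of a peak sets its rank was not tested. The range was wide, from percentile 0.0280 to 99.9 after heat 3 h.

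The share of members fell as the rank of fold enrichment rose. It was 5.58% of the eligible regions in the weakest class by control rank, then 4.39%, 2.93% and 1.88%, and 0.718% in the strongest. Ranked by an unused list, the share fell from 5.82% to 0.977% (cold 12 h), from 6.27% to 0.769% (cold 24 h), from 5.19% to 1.06% (heat 30 min) and from 5.73% to 0.908% (salt 2 h) between the weakest and the strongest class. The order was the same in all 5 rankings. With region width the share rose from 1.43% in the narrowest class (500 to 767 bp) to 3.86% between 1038 and 1381 bp and was 3.04% in the widest class. A short control peak cannot easily be reduced to 50% when no peak is under 200 bp, so the low share among the narrowest regions is in part set by this limit.

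**Figure D5:**
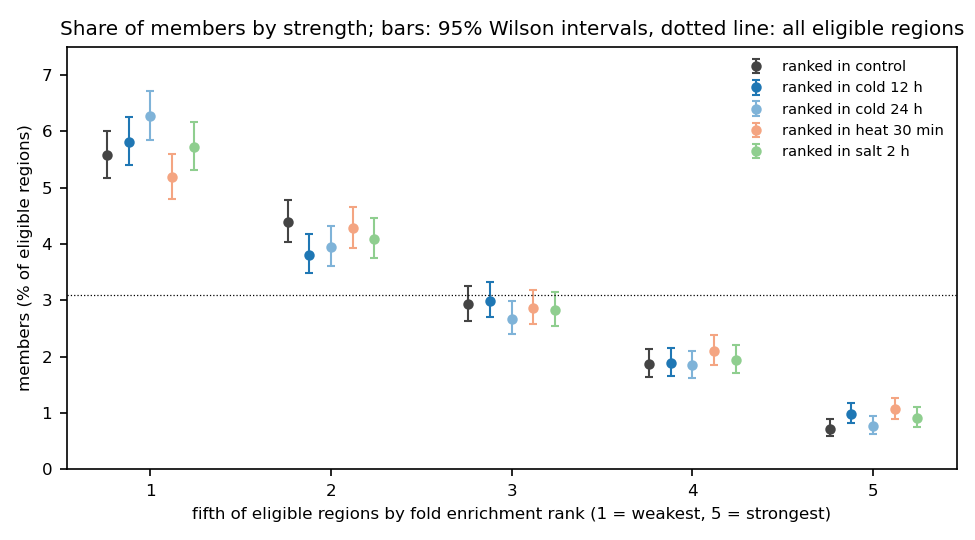
Members as a percentage of eligible regions (y axis) in 5 equal classes of eligible regions from weakest to strongest (x axis), ranked by fold enrichment in the control or in an unused list, with 95% Wilson intervals. The share falls from between 5.19% and 6.27% in the weakest class to between 0.718% and 1.06% in the strongest, and the dotted line is the share in all eligible regions.

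By the rank of fold enrichment, members lay between the other eligible regions and those that had no peak in heat 3 h and salt 6 h. There were 3218 regions with a peak of every list but heat 3 h and salt 6 h, and 1786 of them were in the same range of width. These were weaker, with a median control percentile of 20.2. They were also narrower, with a median width of 799.5 bp and a median control coverage of 472 bp, whereas the members exceeded the other eligible regions in width (1289 against 1194 bp) and in control coverage. In the unused lists their median percentile was 14.0 in salt 2 h, 17.3 in cold 24 h, 22.2 in cold 12 h and 26.3 in heat 30 min. The members, with medians from 44.4 to 47.8 in these lists, were above them and below the other eligible regions in each list. In position the regions without these peaks differed little in their distance to members and to other eligible regions. A member's median distance to the nearest of the 3218 was 35840 bp, against 37861 bp for the other eligible regions, and 8.82% of members and 8.81% of the others had one within 5 kb.

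Members were spread over all 12 chromosomes. Their share of the eligible regions was lowest on chromosome 3, with 178 members (2.70%, Wilson interval 2.33% to 3.12%), and highest on chromosome 12, with 126 members (3.63%, 3.06% to 4.30%). Chromosome 1 had the most members, 218 (3.01%). The mean over chromosomes was 3.13% with an SD of 0.297% (n = 12 chromosomes), and the intervals of the lowest and the highest chromosome overlapped. The depth of narrowing also varied little, with medians per chromosome from 34.6% to 38.3% of the control for heat 3 h and from 37.6% to 40.7% for salt 6 h. For salt 2 h, which the rule did not use, they ran from 69.5% on chromosome 12 to 89.97% on chromosome 7.

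Most members had no member beside them, which a share of 3.1% of the eligible regions would itself give. The nearest other member was a median of 61434 bp away, and 93 members (5.19%) had a member as the next eligible region, against 6.13% of the other eligible regions. By distance the order was the opposite, since the other eligible regions were a median of 71168 bp from a member. Of the runs of neighbouring members, 39 held 2 and 5 held 3. Among 379 windows of 1 Mb, 10 had no member, the median window had 5 and the fullest had 11. The share of members was higher where eligible regions were sparse. In the windows with 2 to 144 eligible regions it was 3.75% (interval 3.45% to 4.08%), with 145 to 172 it was 3.17% (2.94% to 3.42%) and with 173 to 218 it was 2.62% (2.42% to 2.84%). The 1 Mb windows do not mark centromeres or arms, which were not mapped here.

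A few members behaved unlike the rest in the unused lists. The region chr12:223817-225468 was covered over 591 bp in the control, 205 bp after heat 3 h and 242 bp after salt 6 h. It was however covered over 1652 bp after heat 30 min, 1439 bp after salt 2 h, 1219 bp after cold 12 h and 1199 bp after cold 24 h. The region chr11:5201440-5202596 was similar, with 480 bp in the control and 1006 to 1123 bp in the unused lists. At chr7:10740317-10741723 cold 24 h had 434 bp and the other 3 unused lists 1338 to 1371 bp, against 592 bp in the control. These 3 had the highest mean ratio to the control in the unused lists. In each of the 3 the salt 6 h peak lay outside the control peak, and on chromosome 7 the heat 3 h peak did so too. Their short peaks are therefore not all shortened control peaks. Only 5 members had no salt 6 h base inside control peaks.

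At the other extreme the control alone was long. The region chr6:19653516-19655177 was covered over 1662 bp in the control but over 207 bp after cold 12 h, 201 bp after cold 24 h, 223 bp after heat 30 min, 203 bp after heat 3 h, 642 bp after salt 2 h and 247 bp after salt 6 h. At chr6:23144390-23145343 the control had 954 bp and the 6 stress lists 250 to 335 bp, and at chr8:6769420-6770272 it had 851 bp against 252 to 288 bp. Such regions were among the 42 members that were short in every stress list, and they could equally be described as regions of a long control peak.

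The threshold cut through a continuous range. The 4 members just inside were chr1:18686665-18687447, chr3:14588193-14589636, chr4:27154703-27155501 and chr4:30989256-30990258, and in each heat 3 h was at 50% of the control bases. Salt 6 h was there between 27.9% and 37.2%. The 4 eligible regions just outside were chr10:9033748-9035086, chr6:13009615-13010756, chr7:26169217-26170511 and chr9:21091764-21093129. The first had 626 of 1251 control bp after salt 6 h, and the second had 570 of 1139 control bp after heat 3 h, so that less than 1 bp kept each of them out. With limits of 0.4 and 0.6 of the control in place of 0.5, 750 and 3338 regions met the rule.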

How the data were processed

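FAIRE-seq peak lists of 7 conditions, from 2 libraries each, were analysed, and the 2 RNA-seq libraries were not used. Alignment by the authors was with Bowtie2 against IRGSP 1.0, and broad peaks were called with MACS2 once reads in known organelle insertions, reads of low mapping score and duplicates had been taken out. The authors also left out peaks of low read density in a replicate, but whether this was done in the deposited lists is not given in the sources used here. Whether replicates were pooled before peak calling is not given in the sources used here. The deposited lists give each peak's fold enrichment (a ratio), its −log10 p and −log10 q, and a score, which is the whole part of 10 times −log10 q in nearly all peaks. Depth is not in the peak lists, so the precision it gives was not assessed, and Wilson and median intervals cover counting error only.

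Peaks were merged into regions with Python 3.11.15, pandas 2.3.3 and numpy 2.4.6, and bedtools 2.31.1 gave the same 119009 regions. The functions for merging, choosing members, base overlap and neighbours recovered all 8 quantities on 5000 simulated regions. Intervals used scipy 1.17.1 and figures matplotlib 3.10.9. Percentiles of fold enrichment are within a list, and a region takes its strongest peak. No p-value was computed.

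The members and the regions to be named were chosen with earlier results of these data known. Named regions are the member of highest control fold enrichment on each chromosome, the 4 with the lowest sum of heat 3 h and salt 6 h ratios, the 4 on either side of the threshold, and the 3 of highest and of lowest mean ratio in the unused lists. Alternatives were a −log10 q of at least 2, equal numbers of peaks, merging over 100 bp, other ratio limits, no upper width, spans, base-weighted fold enrichment and members of single peaks. Sequences and genes were not analysed here, since no genome or annotation of IRGSP 1.0 was used.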

Additional observations from a re-analysis of the deposited data

How the results depend on the processing

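Each result rests on 1 list per condition, so agreement between settings is no replicate check. A value was taken as changed when it left its 95% interval for counting error or, for the number of members, moved by over 1.5 times. No paired analysis was possible because each condition has 1 list and the replicate libraries have no values of their own. Width is limited by the shortest peaks, of 200 bp. Merging over 100 bp or dropping the upper width limit moved the number and the share of members by less than this, and 1564 of the 1792 members (87.3%) were found again with a −log10 q of at least 2.

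With at most 0.4 of the control, 750 regions (1.297%) were members, and with at most 0.6 there were 3338 (5.77%), with 5.33% and 6.40% on the lowest and highest chromosome, 10.04% beside another member and 34884.5 bp to the nearest one. With equal numbers of peaks the share was 2.58%, with 2.27% and 2.97% on the lowest and highest chromosome and 90901 bp to the nearest member. There the median heat 3 h coverage was 361 bp, and the share of members at most 50% of the control was 29.5% (salt 2 h), 20.7% (cold 12 h), 18.2% (cold 24 h) and 9.59% (heat 30 min). Heat 3 h lay at 1 end in 79.0%, and a median of 90.2% of the salt 6 h bases was in heat 3 h. Spans in place of covered bases gave longer medians, which were 1110 bp (heat 30 min), 1096 bp (control), 1021 bp (cold 12 h), 995 bp (cold 24 h) and 879.5 bp (salt 2 h).

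Base-weighted fold enrichment gave lower median percentiles, with 41.2 (control), 41.3 (cold 24 h), 43.5 (salt 2 h), 44.9 (cold 12 h) and 44.9 (heat 30 min). With a −log10 q of at least 2 they were 46.2 (cold 24 h), 48.7 (salt 2 h) and 50.5 (salt 6 h). In members with 1 peak in control, heat 3 h and salt 6 h, 79.0% lay at 1 end after heat 3 h and 82.5% after salt 6 h, and the shared bases were 97.2% of heat 3 h and 90.5% of salt 6 h. An end zone of 20% of the control span, chosen after seeing the data, gave 86.3% and 85.9%. The cause of these shifts was not tested.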
